A study of Homo sapiens with 15 samples.

Results

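The genes described here carry cytokine signals from the cell surface to the nucleus and switch them off again. They are 10 genes chosen by name: the receptor subunits IL6R, IL6ST and IL2RG, the transcription factors STAT3, STAT5A, STAT5B and STAT6, and the feedback inhibitors CISH, SOCS2 and SOCS3. All 10 are among the 18473 genes listed for NCI-N87 cells, and 9 are among the 18346 genes listed for SNU-484 cells, where IL2RG was not analysed here. The study treated gastric cancer cells with T-DXd (trastuzumab deruxtecan), an antibody against HER2 that carries a topoisomerase I inhibitor, to learn how it alters immune-related expression. NCI-N87, a line from a gastric carcinoma, carries amplified HER2, and its groups were vehicle, trastuzumab (the antibody without the payload) and T-DXd. SNU-484 is a gastric adenocarcinoma line with lower HER2, and its groups were vehicle and T-DXd. Both lines are labelled wild type and the agents were given at 1 µg/ml for 72 h. Each of the 5 groups has 3 libraries of poly(A) RNA that the labels call biological replicates, 15 in all. Each line is 1 cell population grown in culture, so that the tests measure the spread between its cultures. The vehicle was an acetate and sorbitol buffer per the labels, although the column names of the SNU-484 controls carry the letters iso, so it is not settled that the controls of both lines were alike.

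As background, cytokines such as interleukin 6 bind a private receptor subunit, IL6R, and then recruit the shared subunit gp130, which IL6ST encodes. Interleukins 2, 4, 7, 9, 15 and 21 instead share the common gamma chain, which IL2RG encodes and which is best known from lymphocytes. Both kinds of receptor act through Janus kinases, which phosphorylate STAT proteins so that they enter the nucleus. STAT3 is the main factor downstream of gp130, STAT5A and STAT5B act downstream of many common gamma and growth hormone type receptors, and STAT6 acts downstream of interleukin 4 and interleukin 13. STAT5 induces CISH and SOCS2 and STAT3 induces SOCS3, and the encoded proteins then dampen the receptor that activated them.

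The libraries held between 47990460 and 64623697 counts in NCI-N87 and between 46666533 and 66581448 counts in SNU-484. T-DXd replicate 3 of SNU-484 stood apart: it was the least deep of that line, and its root mean square difference in log2 CPM (CPM is a gene's count relative to the TMM-scaled library size) from the other T-DXd libraries was 0.398 and 0.374, against 0.297 to 0.309 for every other pair of SNU-484 libraries within a group. Effects of T-DXd in SNU-484 are therefore given with and without it for the 9 genes and the pathway lists. All 12 epithelial markers were listed in NCI-N87, with a summed level of 10820 to 14380 CPM. SNU-484 went against an epithelial label, since 6 of the 12 were listed and the 5 of them that passed the filter on low counts summed to 18.1 to 25.5 CPM, while 8 of 12 fibroblast and endothelial markers summed to 1463 to 1866 CPM. Most of that sum came from COL3A1 (mean 1202 CPM with vehicle) and COL1A2 (213.6 CPM), while COL1A1 had 13.6 CPM and PDGFRB 0.48 CPM. Of 20 leukocyte markers, 5 were listed in SNU-484 and 4 passed the filter. Among these, PTPRC, which encodes the leukocyte protein CD45, had 121.2 ± 6.92 CPM (SD, n = 3) in SNU-484 vehicle libraries. CD68 had 96.1 CPM, CORO1A 13.5 CPM and TYROBP 1.43 CPM. SNU-484 is therefore called by its name and not as an epithelial line. In bulk libraries, fewer cells that express a gene and less of its RNA per cell cannot be told apart.

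The genes lie on GRCh38 (RefSeq annotation, GRCh38.p14) as follows. IL6R (NCBI gene 3570) is at chromosome 1, 154405343 to 154469450. IL6ST (gene 3572) is at chromosome 5, 55935095 to 55994963, and IL2RG (gene 3561) is at chromosome X, 71107404 to 71111577. CISH (gene 1154) is at chromosome 3, 50606489 to 50611774. SOCS2 (gene 8835) and STAT6 (gene 6778) are both on chromosome 12, at 93569969 to 93626236 and at 57095408 to 57111362. STAT5B (gene 6777, 42199177 to 42288370), STAT5A (gene 6776, 42287439 to 42311943) and STAT3 (gene 6774, 42313324 to 42388442) are neighbours on chromosome 17, and STAT5B begins 2470519 bases past the end of ERBB2, the HER2 gene. SOCS3 (gene 9021) is further along chromosome 17, at 78356778 to 78360925.

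One promoter is shown because CISH was the one of the 10 genes called lower with T-DXd in both lines, and it held the core letters of a STAT5 site, TTCNNNGAA, in its promoter window. Windows of 300 bases (250 before to 50 after the start) were searched in RefSeq sequence of GRCh38.p14, on both strands at once, since the motif is its own reverse complement and its matches here do not overlap one another. Of 35116 windows, 7.66% held at least 1 match and 0.0199%, or 7 windows, held at least 4. The 12 windows of 9 of the genes were in the table, and CISH was the only one of these genes with a match. It had 4, with first bases at -241, -230, -129 and -112 from the start. The window is chr3:50611725-50612024 on the minus strand, read 5′ to 3′ along the gene, with the matches in capitals.
CISH: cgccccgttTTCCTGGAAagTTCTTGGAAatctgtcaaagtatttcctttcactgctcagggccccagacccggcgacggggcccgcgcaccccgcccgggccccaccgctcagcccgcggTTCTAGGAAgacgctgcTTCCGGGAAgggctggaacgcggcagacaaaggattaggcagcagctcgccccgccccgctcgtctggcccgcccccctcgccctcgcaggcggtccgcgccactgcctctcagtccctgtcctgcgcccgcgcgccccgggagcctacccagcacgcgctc
The matches TTCCTGGAA, TTCTTGGAA, TTCTAGGAA and TTCCGGGAA describe the letters of this window, and binding was not measured.

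Levels of different genes were set side by side as CPM per kilobase of exon (the union of GENCODE exons). In NCI-N87 vehicle cells STAT6 was the highest of the 10 at 25.0 ± 0.570 CPM per kilobase (SD, n = 3), followed by STAT3 at 10.1 ± 0.220 and IL6ST at 8.63 ± 0.172. SOCS3 followed at 2.1 ± 0.213 and STAT5B at 1.57 ± 0.0674, an order that turned per kilobase of the longest transcript (STAT5B 2.59, SOCS3 2.1) and in the authors' TPM (7.66 and 4.38). IL2RG (0.983 ± 0.182), STAT5A (0.928 ± 0.0199), CISH (0.852 ± 0.0762) and IL6R (0.805 ± 0.0319) came next, each differing from its neighbour in this order by no more than the larger of their SDs. SOCS2 was lowest at 0.110 ± 0.0186. In SNU-484 vehicle cells STAT3 led at 10.9 ± 0.229 CPM per kilobase, with STAT6 at 9.83 ± 0.328 and IL6ST at 9.62 ± 0.727 not separated beyond their spread. STAT6 was further above IL6ST per kilobase of the longest transcript (17.9 against 12.9) and in the authors' TPM (38.0 against 26.8). SOCS2 came next at 6.93 ± 0.242, although in the authors' TPM it was above IL6ST (35.7 against 26.8). SOCS3 (4.87 ± 0.268) and STAT5B (4.70 ± 0.241) followed, and their spread did not separate them. STAT5B was above SOCS3 per kilobase of the longest transcript (7.74 against 4.87) and in the authors' TPM (23.3 against 10.1). IL6R (1.51 ± 0.0662), CISH (0.598 ± 0.0149) and STAT5A (0.158 ± 0.0343) came last in CPM per kilobase of exon. In both lines the ligand-binding IL6R lay well below the signal-transducing IL6ST on this scale.

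**Figure D1:**
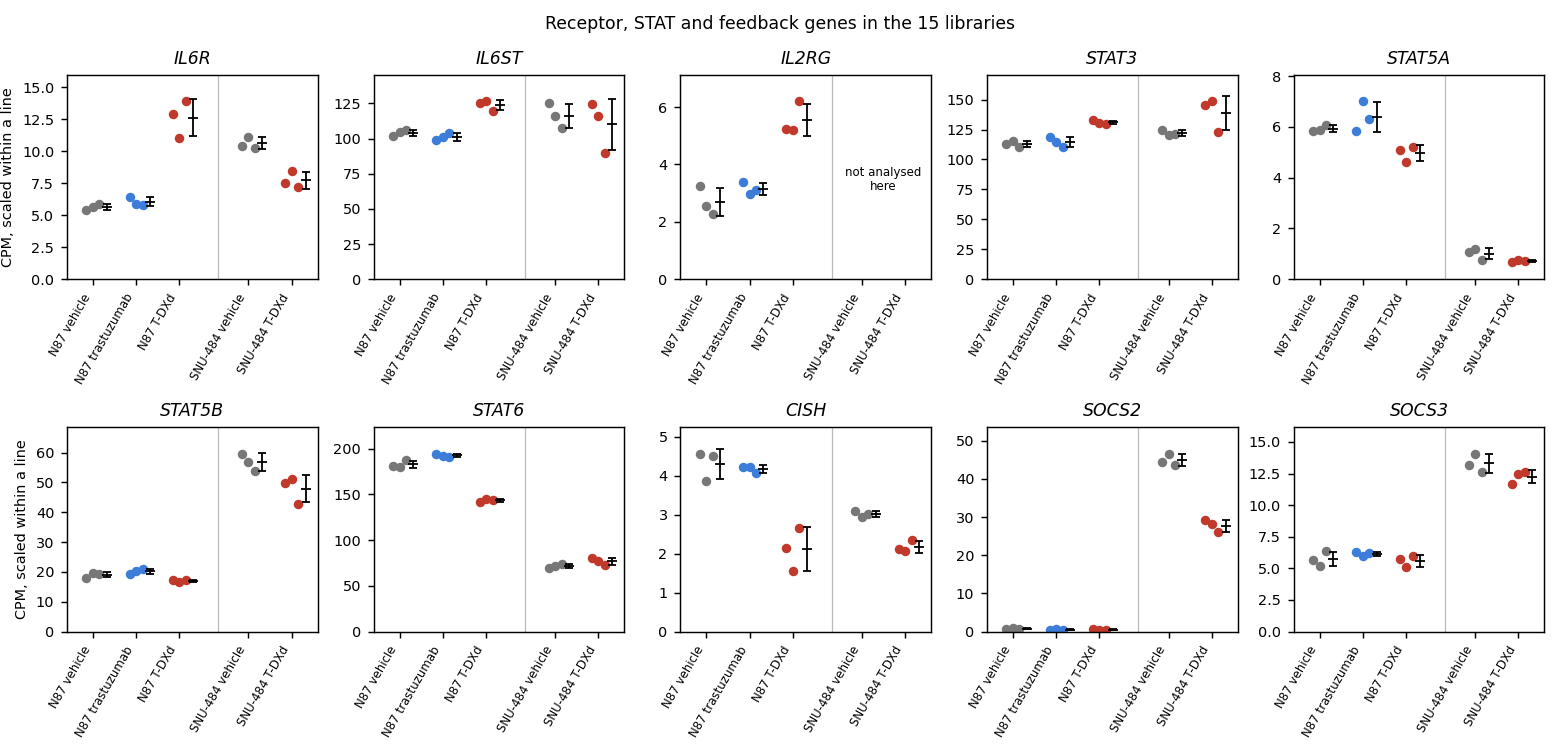
Level of each gene in each library (y axis, CPM with TMM factors within a line, starting at 0) for the 5 groups on the x axis, with 3 points per group and the mean ± SD beside them in black. In NCI-N87 the T-DXd libraries lie above the vehicle libraries for IL6R and IL2RG and below them for CISH. SOCS2 is near 0 in NCI-N87 and above 26.0 CPM in every SNU-484 library.

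In NCI-N87 cells T-DXd raised the receptor genes and STAT3, and lowered CISH, STAT6 and both STAT5 genes. IL6R and IL2RG each rose about as much as CISH fell, by a factor near 2, whereas IL6ST, STAT3 and the other STAT genes changed by at most 1.27-fold. Of the 10 genes, 4 rose and 4 fell against vehicle at an adjusted p under 0.05 (edgeR quasi-likelihood test, Benjamini-Hochberg adjustment over 17394 genes, where a call means passing that threshold). Over all genes tested 29.1% rose and 29.5% fell, and the count of the 10 is to be read against that wide response. Their median log2 fold change was -0.09, against -0.01 over all genes.

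IL6R, the interleukin 6 binding subunit, had 5.41, 5.64 and 5.85 CPM in the vehicle libraries, 6.45, 5.90 and 5.83 CPM with trastuzumab and 12.9, 11.0 and 13.9 CPM with T-DXd. Every T-DXd library was above every other NCI-N87 library. The log2 fold change was 1.16 ± 0.09 (SE), or 2.24-fold, with an edgeR adjusted p of 1.57e-08. The antisense gene IL6R-AS1 overlaps 1372 bases of the span of IL6R in the GENCODE annotation and the pseudogene PSMD8P1 769 bases, both on the opposite strand, and whether the counting used strand is not given in the sources used here. IL6ST, which encodes gp130, had 101.7, 104.5 and 105.8 CPM with vehicle and 125.1, 126.5 and 119.7 CPM with T-DXd. These groups did not overlap, and the change was small, at 0.25 ± 0.03 on the log2 scale (edgeR adjusted p = 4.26e-07).

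IL2RG, the common gamma chain, had 3.24, 2.54 and 2.28 CPM with vehicle, 3.39, 2.98 and 3.10 CPM with trastuzumab and 5.25, 5.203 and 6.204 CPM with T-DXd. The counts behind these values were 132 to 186 with vehicle and 306 to 361 with T-DXd. Vehicle and T-DXd libraries lay apart, with a log2 fold change of 1.05 ± 0.14 (2.065-fold, edgeR adjusted p = 4.36e-06). Since IL2RG is best known from lymphocytes, leukocyte markers were read beside it. Of 20 markers, 8 were listed in NCI-N87 (PTPRC and CD3E were not analysed here), and these summed to 75.0 to 79.2 CPM with vehicle, 76.2 to 79.0 CPM with trastuzumab and 111.4 to 115.3 CPM with T-DXd. Of the 8, 5 rose and 1 fell with T-DXd, led by ITGAX (2.48 ± 0.13 on the log2 scale), LAPTM5 (1.68 ± 0.29, at a low 0.811 CPM with vehicle and named after its values were seen) and CD68 (1.05 ± 0.05). CD68 had a mean of 22.8 CPM with vehicle and 47.3 CPM with T-DXd. Means were lower with T-DXd for LYZ (43.7 to 40.8 CPM), CD79A (0.458 to 0.405 CPM) and CD14 (0.213 to 0.130 CPM). The fibroblast and endothelial markers, with 2 of 12 listed, summed to 2.23 to 2.54 CPM with vehicle and 7.89 to 10.1 CPM with T-DXd. These were COL1A1 (mean 2.13 CPM with vehicle, 8.67 CPM with T-DXd) and VWF (0.220 and 0.515 CPM). The part of these markers in the changes of IL2RG and IL6R was not tested.

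STAT3, the main factor downstream of gp130, had 113.1, 115.4 and 110.5 CPM with vehicle and 132.7, 130.3 and 129.9 CPM with T-DXd, a log2 fold change of 0.21 ± 0.03 (edgeR adjusted p = 2.53e-06) with no overlap. STAT6, the factor of interleukin 4 and interleukin 13, went the other way. It had 180.8, 179.8 and 187.5 CPM with vehicle and 141.4, 144.6 and 144.1 CPM with T-DXd, and its log2 fold change was -0.35 ± 0.02 (edgeR adjusted p = 2.75e-09). All 3 T-DXd libraries lay below the vehicle libraries. The span of STAT6 shares 3657 bases with LRP1 and 69 bases with NAB2, both on the opposite strand.

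STAT5A and STAT5B, paralogs that act downstream of many cytokine receptors, were both slightly lower. STAT5A had 5.82, 5.89 and 6.07 CPM with vehicle and 5.10, 4.63 and 5.22 CPM with T-DXd, with a log2 fold change of -0.25 ± 0.10 (edgeR adjusted p = 0.0411). STAT5B had 18.1, 19.7 and 19.2 CPM with vehicle and 17.4, 16.7 and 17.2 CPM with T-DXd, with -0.15 ± 0.05 (adjusted p = 0.0248, edgeR). The groups did not overlap for either gene, but both calls were close to the threshold. When 1 NCI-N87 library was left out, STAT5A passed in 4 of 9 fits (highest adjusted p 0.143, edgeR) and STAT5B in 6 of 9 (highest adjusted p 0.101, edgeR). STAT5A was lost without vehicle replicate 1, 2 or 3 or without T-DXd replicate 1 or 2 (log2 values -0.26, -0.25, -0.23, -0.27 and -0.20), and STAT5B without vehicle replicate 2 or 3 or T-DXd replicate 2 (-0.12, -0.14 and -0.14).

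CISH, the inhibitor that STAT5 induces, had 4.57, 3.87 and 4.49 CPM with vehicle, 4.23, 4.23 and 4.06 CPM with trastuzumab and 2.14, 1.55 and 2.66 CPM with T-DXd. The T-DXd libraries, with 91 to 155 counts, lay below all other NCI-N87 libraries. The log2 fold change was -1.03 ± 0.16, or 2.04-fold lower, with an edgeR adjusted p of 2.70e-05. The span of CISH shares 255 bases with that of MAPKAPK3 on the opposite strand.

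The other feedback inhibitors among the genes described here, SOCS2 and SOCS3, did not pass the test. SOCS2 was barely expressed, with 35, 44 and 41 counts (0.610, 0.846 and 0.687 CPM) with vehicle and 40, 21 and 26 counts (0.652, 0.357 and 0.447 CPM) with T-DXd. These groups overlapped, and the log2 value of -0.55 had a 95% interval of -1.15 to 0.05 (edgeR adjusted p = 0.110). Without T-DXd replicate 1 it was -0.82, with an edgeR adjusted p of 0.0323, so that 1 library decided this call. SOCS3, which STAT3 induces, had 5.68, 5.17 and 6.34 CPM with vehicle and 5.76, 5.08 and 5.98 CPM with T-DXd. The interval of its log2 fold change was -0.25 to 0.19.

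Trastuzumab alone moved none of the 10 genes past the threshold in NCI-N87 (0 of 10 by edgeR, 1 of 10 at an unadjusted p under 0.05 and 1 of 10 by DESeq2). Over all genes 3.65% rose and 6.09% fell. The nearest was STAT6, with 180.8, 179.8 and 187.5 CPM with vehicle and 194.6, 192.1 and 191.1 CPM with trastuzumab, which did not overlap. Its log2 fold change was 0.08 ± 0.02 (edgeR adjusted p = 0.0637), opposite in sign to that with T-DXd. It was called without vehicle replicate 3 (0.09, edgeR adjusted p = 0.0343) and without T-DXd replicate 1, which shares the fit (0.08, edgeR adjusted p = 0.0477). For the other genes the groups overlapped. The intervals were -0.10 to 0.31 for IL6R, -0.07 to 0.53 for IL2RG and -0.37 to 0.27 for CISH, so that changes as large as those of T-DXd lay outside them.

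The direct comparison of T-DXd with trastuzumab gave 4 of 10 genes higher and 4 lower, beside 28.3% and 29.4% of all genes. It shares its T-DXd libraries with the comparison above. IL6R was 1.06 ± 0.09 and IL2RG 0.81 ± 0.13 higher on the log2 scale, IL6ST 0.29 ± 0.03 and STAT3 0.19 ± 0.03. CISH was at -0.98 ± 0.16, STAT6 at -0.43 ± 0.02, STAT5A at -0.36 ± 0.10 and STAT5B at -0.24 ± 0.05. The 8 calls were also made in each of the 9 fits that left out 1 library. SOCS2 (-0.06, 95% interval -0.69 to 0.57) and SOCS3 (-0.13, -0.35 to 0.09) were not called.

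**Figure D2:**
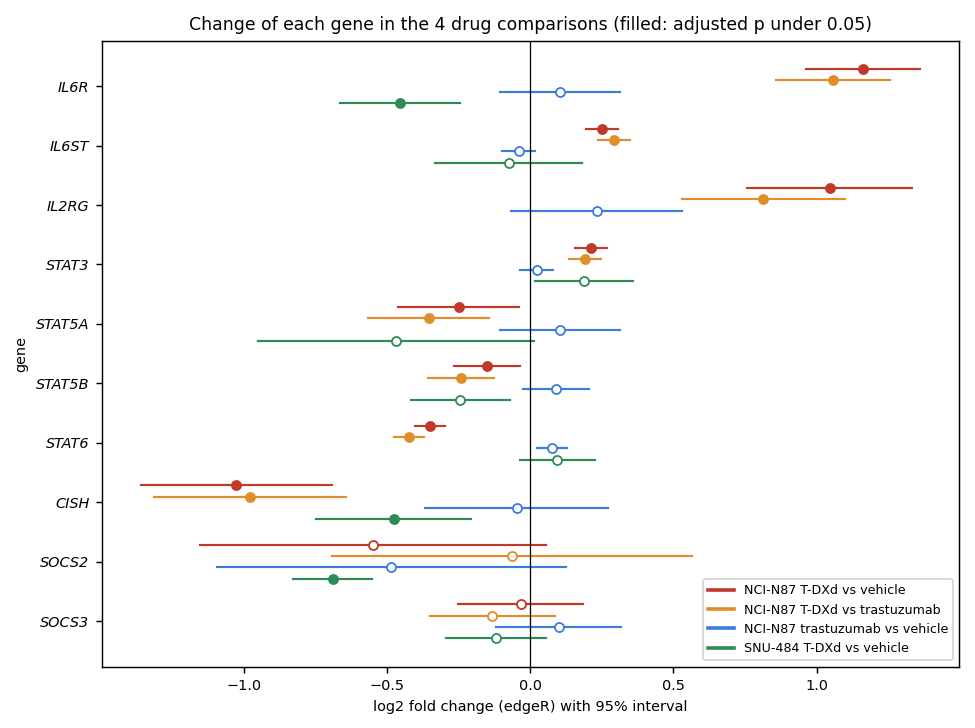
Log2 fold change of each gene (x axis, edgeR, with the 95% interval as a line) in 4 comparisons, coloured by comparison, with filled points where the adjusted p was under 0.05. The T-DXd values of NCI-N87 run from -1.03 for CISH to 1.16 for IL6R, and all 10 trastuzumab points are open.

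In SNU-484 cells T-DXd lowered 3 of the 9 genes and raised none by the same test. SOCS2, CISH and IL6R fell. Of 4 leukocyte markers tested, PTPRC (-0.42 ± 0.11 on the log2 scale) and CORO1A (-0.73 ± 0.08) fell, and CD68 and TYROBP were not called. Without T-DXd replicate 3, PTPRC was at -0.29 and CORO1A at -0.79, both still called. The summed level of the 4 was 229.2 to 237.5 CPM with vehicle and 181.8 to 202.7 CPM with T-DXd. Most of the difference was PTPRC, with a mean of 121.2 CPM with vehicle and 90.7 CPM with T-DXd. Of 8 fibroblast and endothelial markers 3 rose and 2 fell, with a summed 1463 to 1574 CPM with vehicle and 1625 to 1866 CPM with T-DXd. The part of these markers in the results was not tested. Over the 16876 genes tested, 11.2% rose and 9.65% fell. SOCS2 is the inhibitor best known for restraining growth hormone signals. It had 44.3, 46.6 and 43.7 CPM with vehicle and 29.2, 28.1 and 26.0 CPM with T-DXd, far apart, and its log2 fold change was -0.69 ± 0.06 (1.615-fold lower, edgeR adjusted p = 0.000378). It was called in 6 of 6 fits that left out 1 library, and without T-DXd replicate 3 it was -0.65 (edgeR adjusted p = 2.87e-06). The antisense gene SOCS2-AS1 overlaps 1955 bases of its span.

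CISH had 3.10, 2.95 and 3.02 CPM with vehicle and 2.11, 2.06 and 2.36 CPM with T-DXd, from 110 to 189 counts. The groups did not overlap, with a log2 fold change of -0.48 ± 0.12 (edgeR adjusted p = 0.0232). The call held in 1 of 6 fits with a library left out, the one without T-DXd replicate 3 (-0.53, edgeR adjusted p = 0.00949). Without vehicle replicate 1, 2 or 3 or T-DXd replicate 1 or 2 the values were -0.46, -0.50, -0.48, -0.45 and -0.44, with edgeR adjusted p up to 0.0858. IL6R had 10.4, 11.1 and 10.2 CPM with vehicle and 7.55, 8.45 and 7.18 CPM with T-DXd, again without overlap. Its log2 fold change was -0.45 ± 0.09 (edgeR adjusted p = 0.0106). It was -0.40 (adjusted p = 0.00645, edgeR) without T-DXd replicate 3 and lost the call without vehicle replicate 2 (-0.42, adjusted p = 0.0559, edgeR).

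In SNU-484, STAT3, STAT5B and STAT6 were called by the same edgeR test without T-DXd replicate 3 and not with it. STAT3 had 125.0, 120.1 and 121.2 CPM with vehicle and 145.4, 148.6 and 122.9 CPM with T-DXd, replicate 3 lying within the vehicle range. Its log2 fold change of 0.19 ± 0.07 was not called (edgeR adjusted p = 0.109), and was 0.27 ± 0.04 without that library (adjusted p = 0.000458, edgeR). STAT5B had 59.7, 56.99 and 53.9 CPM with vehicle and 49.96, 51.0 and 42.9 CPM with T-DXd, with -0.24 ± 0.08 (adjusted p = 0.0519, edgeR, and 0.0208 by DESeq2 on the same libraries) and -0.17 ± 0.05 without that library (adjusted p = 0.0281, edgeR). STAT6 had 69.5, 71.5 and 74.2 CPM with vehicle and 80.0, 77.4 and 72.4 CPM with T-DXd, with 0.09 ± 0.06 (adjusted p = 0.276, edgeR) and 0.14 ± 0.05 without it (adjusted p = 0.0468, edgeR). Without T-DXd replicate 3, 6 of the 9 genes were called and so were 5477 of all genes, against 3526 with it.

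STAT5A was scarcely expressed in SNU-484, with 61, 75 and 48 counts with vehicle and 47, 46 and 34 counts with T-DXd (-0.47 on the log2 scale, 95% interval -0.95 to 0.01, and -0.47 without T-DXd replicate 3, edgeR adjusted p = 0.164), and the groups did not overlap. IL6ST had 125.0, 115.7 and 107.4 CPM with vehicle and 124.2, 116.0 and 89.9 CPM with T-DXd, and its log2 value of -0.08 became 0.05 without T-DXd replicate 3, on neither occasion past the threshold. SOCS3 had 13.2, 14.1 and 12.6 CPM with vehicle and 11.7, 12.5 and 12.6 CPM with T-DXd (-0.12, 95% interval -0.29 to 0.06, and -0.14 without T-DXd replicate 3, edgeR adjusted p = 0.229), with every T-DXd library below every vehicle library by little.

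The effect of T-DXd differed between the lines for IL6R, IL6ST and STAT6, as tested by an interaction over the 12 vehicle and T-DXd libraries and the genes listed for both lines. Of the 9 genes, 2 were called with a higher effect in NCI-N87 and 1 with a lower effect, beside 22.3% and 19.3% of 14785 genes. IL6R rose in NCI-N87 and fell in SNU-484, with a difference of 1.64 ± 0.13 on the log2 scale (edgeR adjusted p = 1.11e-06) that was 1.56 without SNU-484 T-DXd replicate 3. STAT6 fell in NCI-N87 and was not called in SNU-484, and the difference was -0.42 ± 0.06 (edgeR adjusted p = 0.000101). The IL6ST difference of 0.35 ± 0.13 was near the threshold (edgeR adjusted p = 0.0422). It passed in 4 of 12 fits with 1 library left out (0.19 to 0.45, highest edgeR adjusted p 0.103). Every fit without an NCI-N87 library lost the call (0.34, 0.35 and 0.36 without vehicle replicate 1, 2 and 3; 0.34, 0.33 and 0.38 without T-DXd replicate 1, 2 and 3), as did those without SNU-484 vehicle replicate 1 (0.29) or 2 (0.35). Without SNU-484 T-DXd replicate 3 it was 0.19 and called. CISH was lower with T-DXd in both lines, and the difference of -0.53 ± 0.23 was not called (95% interval -1.03 to -0.02, edgeR adjusted p = 0.0869), although it was -0.72 without NCI-N87 T-DXd replicate 3 (adjusted p = 0.0186, edgeR).

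In vehicle cells 7 of the 9 genes differed between the lines, 3 higher and 4 lower in NCI-N87, beside 41.9% and 43.3% of all genes. Line, table and control labels cannot be told apart here. The tables also list different RefSeq transcripts for 8 of these 9 genes, as they do for many others: 48.9% of the 15259 genes in both tables have the same list. SOCS2 was 58.3-fold lower in NCI-N87, at 0.660, 0.915 and 0.742 CPM against 44.6, 46.6 and 43.5 CPM in SNU-484 when both lines were scaled together (-5.87 ± 0.12 on the log2 scale). IL6R was also lower in NCI-N87, at 5.84, 6.10 and 6.31 CPM against 10.5, 11.1 and 10.2 CPM (-0.80 ± 0.10). SOCS3 was at -1.10 ± 0.09, STAT6 at 1.46 ± 0.04 and CISH at 0.62 ± 0.16. IL6ST (-0.05, 95% interval -0.24 to 0.15) and STAT3 (-0.0012, -0.13 to 0.12) were not called.

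**Figure D3:**
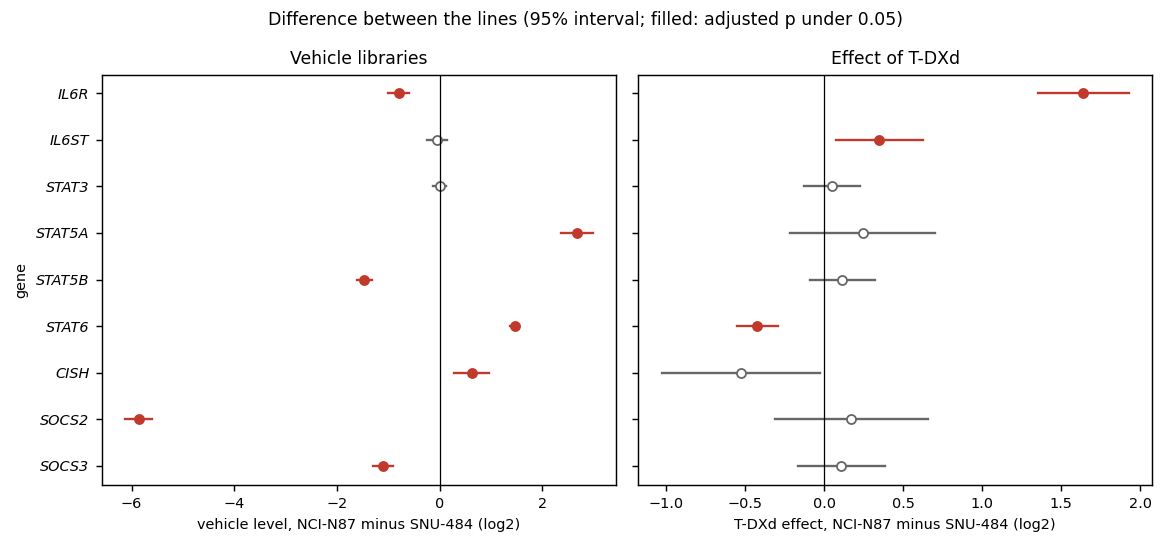
Difference between NCI-N87 and SNU-484 for the 9 genes listed for both lines (points, edgeR log2 values; lines, 95% intervals; filled, adjusted p under 0.05), in vehicle libraries on the left and for the effect of T-DXd on the right. SOCS2 stands out on the left at -5.87, and IL6R on the right at 1.64.

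The STAT5 paralogs were expressed in different proportions by the lines. In vehicle cells the log2 difference of NCI-N87 from SNU-484 was 2.67 ± 0.15 (SE) for STAT5A and -1.47 ± 0.07 for STAT5B. STAT5A made up 24.3%, 23.0% and 24.0% of the summed STAT5A and STAT5B counts in NCI-N87 vehicle libraries, and 1.74%, 2.06% and 1.40% in SNU-484 vehicle libraries. T-DXd left 22.7%, 21.7% and 23.3% in NCI-N87 and 1.37%, 1.46% and 1.67% in SNU-484, and trastuzumab 23.2%, 25.6% and 23.1%. Within a line the share under treatment was not separated from vehicle (exact permutation test, two-sided, p = 0.2 for T-DXd and 0.8 for trastuzumab in NCI-N87, 0.3 in SNU-484), and 3 against 3 libraries cannot go below 0.1. The genes overlap by 1087 bases on opposite strands in the GENCODE annotation, and 10.1% of the 100-base words of the STAT5A transcript also occur in STAT5B, so that their counts are uncertain where reads could belong to either.

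**Figure D4:**
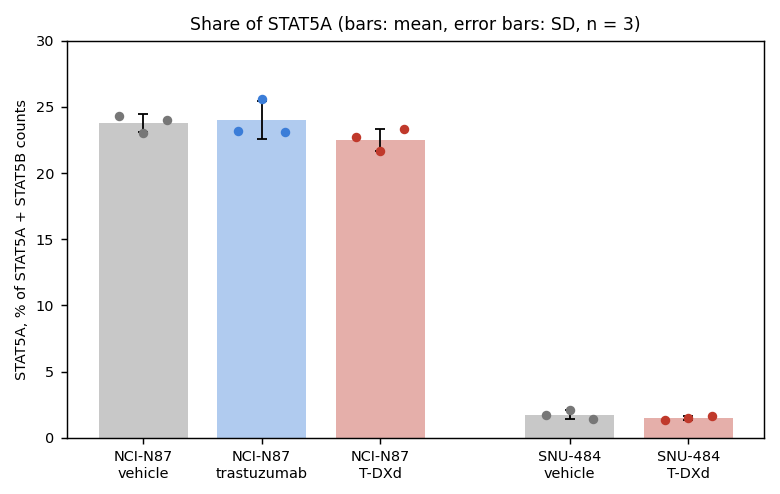
Percentage of STAT5A in the summed STAT5A and STAT5B counts of each library (points), with the mean as a bar from 0 and the SD as an error bar (n = 3). The NCI-N87 libraries lie between 21.7% and 25.6% and the SNU-484 libraries between 1.37% and 2.06%.

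The wider pathway was read from lists, which also hold the genes described above, so that calls already given are counted again in them. List counts with T-DXd are to be set against 29.1% of all genes higher and 29.5% lower in NCI-N87. In SNU-484 the shares were 11.2% higher and 9.65% lower. Without T-DXd replicate 3 of SNU-484 these shares were 16.4% and 15.7%. Among ligands of the gp130 family, 3 of 10 were tested in NCI-N87 and all 3 rose with T-DXd: CLCF1 (0.33 ± 0.12 on the log2 scale), LIF (0.21 ± 0.03) and IL11 (0.72 ± 0.20), the last named after its values were seen. In SNU-484, 4 of 6 tested ligands fell and none rose, among them EBI3 (-0.93 ± 0.16) and CLCF1 (-0.44 ± 0.11), and without T-DXd replicate 3 the count was also 4 of 6 (EBI3 -0.81, CLCF1 -0.49). Of the gp130 family receptors, 4 of 6 rose and 1 fell in NCI-N87, where LIFR, the LIF receptor, was at 0.34 ± 0.08 and IL27RA, the interleukin 27 receptor, at -0.34 ± 0.07. In SNU-484, 2 of 7 rose and 2 fell, with LIFR at -0.45 ± 0.12 and IL11RA, the interleukin 11 receptor, at 0.41 ± 0.06, and the count was the same without T-DXd replicate 3 (LIFR -0.33, IL11RA 0.37). The interaction was called for LIFR (0.81 ± 0.16) as it was for IL6R.

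The same shares apply to the receptors and kinases that follow. Of the common gamma family, IL15 was the single ligand tested in NCI-N87 (0.03 ± 0.14, not called). The receptor list also held receptor genes of interleukin 13, which is not among the interleukins that share the common gamma chain. In NCI-N87, 3 of 5 listed receptors rose with T-DXd, IL2RG among them. The 1 that fell was the interleukin 13 receptor gene IL13RA1 (mean 73.3 CPM with vehicle, 68.3 CPM with T-DXd). IL4R, which pairs with the common gamma chain in the interleukin 4 receptor, was at 0.22 ± 0.05 in NCI-N87 and at -0.28 ± 0.07 in SNU-484 (-0.28 without T-DXd replicate 3). In SNU-484, 1 of 5 listed receptors rose and 1 fell, with or without that library. IL13RA1 rose there (mean 97.1 CPM with vehicle, 126.5 CPM with T-DXd) and IL4R fell. Of the kinases, 3 of 4 rose in NCI-N87: JAK1, which serves both receptor families, at 0.50 ± 0.02, TYK2 at 0.19 ± 0.03 and JAK3, the partner of the common gamma chain, at 0.72 ± 0.21, the last named after its values were seen. None of the 4 was called in SNU-484, where JAK1 was at 0.21 ± 0.07, but without T-DXd replicate 3 JAK1 (0.29, edgeR adjusted p = 0.000439) and TYK2 (0.14, edgeR adjusted p = 0.0417) were called higher. JAK1 was also the kinase called higher with trastuzumab alone (0.11 ± 0.02, edgeR adjusted p = 0.00992).

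Among the 8 SOCS and CIS inhibitors, 1 rose and 2 fell in NCI-N87 with T-DXd, no larger a share than over all genes. In SNU-484, 4 fell, CISH and SOCS2 among them, and none rose, with or without T-DXd replicate 3. Over all genes tested there, 9.65% fell with that library and 15.7% without it. SOCS4 was at 0.30 ± 0.03 in NCI-N87 and at -0.42 ± 0.08 in SNU-484 (-0.33 without that library), and SOCS5 at -0.32 ± 0.06 in NCI-N87. In SNU-484, SOCS5 had means of 32.0 CPM with vehicle and 26.1 CPM with T-DXd. Without T-DXd replicate 3, SOCS5 was at -0.23 there (edgeR adjusted p = 0.00866). PTPN1, a phosphatase that acts on Janus kinases, rose in NCI-N87 (0.66 ± 0.02). It is 1 of 11 inhibitors outside the SOCS and CIS family tested there. Of these, 6 rose and 1 fell, beside 29.1% and 29.5% of all genes.

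The lists of STAT target genes are read against the same shares. In NCI-N87, of 12 tested STAT5 target genes 8 rose and CISH alone fell with T-DXd, with MUC4, a membrane mucin, at 1.06 ± 0.03 and PIM1, a survival kinase, at 0.88 ± 0.08. The list median was 0.43 on the log2 scale, against -0.01 over all genes, whose median absolute change was 0.26. Of 21 STAT3 target genes 12 rose and 5 fell, with ICAM1, an adhesion molecule, at 1.02 ± 0.04 and SERPINA3, an acute phase protease inhibitor, at -1.01 ± 0.12. The list median was 0.16, a signed value in which rises and falls offset, so it cannot be compared with that absolute change. Of 8 STAT6 target genes 5 rose and 1 fell, with ALOX15 at 1.65 ± 0.17 and TGM2, a transglutaminase, at 1.45 ± 0.05, and a list median of 0.95. In SNU-484, 3 of 11 STAT5 target genes rose and 3 fell, 2 of 19 STAT3 target genes rose and 5 fell, and of 7 STAT6 target genes none rose, 2 fell and 5 were not called. That list had a median of 0.16, opposite in sign to TGM2 at -1.81 ± 0.08. Without T-DXd replicate 3 of SNU-484, 3 rose and 4 fell of the STAT5 targets, 2 and 6 of the STAT3 targets, and 1 and 2 of the STAT6 targets, with TGM2 at -1.84. These lists share members, CISH among them, and the genes on them answer to many other factors.

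Over the 9 NCI-N87 libraries, the genes whose log2 CPM followed IL6R most closely were CCND1 (Pearson r = 0.996), CLCN7 (0.995) and TMEM40 (0.995). Those of IL2RG were DAB2IP (0.992), INSIG2 (0.990) and RAP1GAP2 (0.983), and those of CISH were BPHL (0.994), ZSCAN9 (0.986) and BCL11B (0.985). The libraries share 3 treatment groups, so that any gene changed by T-DXd alone can reach a high r, and the values are a description.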

How the data were processed

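The deposited tables held RNA sequencing results for 15 libraries, 9 of NCI-N87 and 6 of SNU-484 cells. The deposited counts are whole reads per gene. Per the study's methods and the processing notes, the authors used Trimmomatic 0.38 for trimming, HISAT2 2.1.0 for alignment (GRCh38) and StringTie 2.1.3b for counting. The annotation release and the strand setting are not given in the sources used here. The TPM values that the authors deposited were used only to rank levels. The authors' own fold changes and p-values were not used, nor were 18 NCI-N87 and 12 SNU-484 columns of FPKM and normalized values. Every listed gene had at least 1 count in each library of its table.

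The test was edgeR's quasi-likelihood F test (version 4.0.16, R 4.3.3) after filterByExpr (minimum count 10, minimum total 15) and TMM scaling, with 1 term per group, Benjamini-Hochberg adjustment over all genes tested and calls at 0.05. The 9 NCI-N87 libraries, the 6 SNU-484 libraries and the 12 vehicle and T-DXd libraries of both lines (joined by gene ID) were fitted separately. The SE is the size of the log2 fold change divided by the square root of F. The code was tested on simulated data. Alternatives were DESeq2 1.42.0, other scaling factors and filters, a replicate block, fewer groups and each library left out. Named are the 10 genes, up to 3 called genes per list and comparison (those with the greatest change whose mean log2 CPM reached 1, else up to 2 of the highest CPM) and the 3 genes most like IL6R, IL2RG and CISH. Not every gene this rule picks is printed. Members and lists were chosen with earlier results of these data known. The p-values measure the spread between cultures of 1 line.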

Additional observations from a re-analysis of the deposited data

Results flagged for a closer look

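The effect of T-DXd differed between NCI-N87 and SNU-484 for 3 of the 9 genes by the interaction test (edgeR, adjusted over 14785 genes). Of all genes, 22.3% were called with a higher effect in NCI-N87 and 19.3% with a lower one. The difference was 1.64 for IL6R on the log2 scale, where the 3 NCI-N87 T-DXd libraries all lay above their vehicle libraries and the 3 SNU-484 T-DXd libraries all lay below theirs. It was 0.35 for IL6ST and -0.42 for STAT6. The IL6R and STAT6 differences were called in all 12 fits that left out 1 library, and the IL6ST difference in 4 of them.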

How the results depend on the processing

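Of 939 results for single genes under alternatives, 884 kept their direction and their side of the threshold, 25 lost a call, 14 gained one and 16 changed sign. The 884 include SOCS2 (trastuzumab against vehicle in NCI-N87) by DESeq2, which kept its direction but had no adjusted p. None of the 16 was called in the fit reported. In NCI-N87, SOCS3 (T-DXd against vehicle) ran from -0.0991 to 0.0459 with 1 library left out, STAT3 (trastuzumab against vehicle) from -0.0045 to 0.0486 and SOCS2 (T-DXd against trastuzumab) from -0.337 to 0.1161. IL6ST in SNU-484 ran from -0.1692 to 0.052. In the interaction STAT3 ran from -0.0641 to 0.0977 and SOCS2 from -0.1074 to 0.3505, and STAT3 was -0.0141 with upper-quartile factors. Between the vehicle groups IL6ST ran from -0.1028 to 0.0123 and STAT3 from -0.0166 to 0.0351, and STAT3 was 0.024 with RLE factors, 0.024 with DESeq2 and 0.0182 with only the groups compared. The cause was not tested for any of these.

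Leaving out 1 library gave 6 to 8 of the 10 genes for T-DXd against vehicle in NCI-N87, 0 to 1 for trastuzumab, 8 for T-DXd against trastuzumab, 1 to 6 of 9 in SNU-484, 2 to 3 for the interaction and 7 between the vehicle groups. Over all genes it gave 993 to 1820 calls for trastuzumab (1695 with all libraries) and 1466 to 5477 in SNU-484 (3526). Trastuzumab called 1 gene, STAT6, with upper-quartile factors (0.09), without a filter (0.07), with a minimum of 10 counts in all libraries (0.08) and with DESeq2 (0.07), which gave no adjusted p for SOCS2. Without a filter STAT5A lost its NCI-N87 call (edgeR adjusted p = 0.0541). The IL6ST interaction was lost with upper-quartile factors (0.29, edgeR adjusted p = 0.0691), and DESeq2 called STAT5B in SNU-484 (adjusted p = 0.0208). By the longest transcript, 6, 2, 3, 2 and 3 genes changed rank per kilobase (NCI-N87 vehicle, trastuzumab, T-DXd, SNU-484 vehicle, T-DXd), and by the deposited TPM, chosen after seeing the data, 4, 5, 3, 4 and 3.

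Same-numbered libraries were not shown to be pairs: their deviations correlated at -0.101 to 0.0835 in NCI-N87 and at 0.53, -0.224 and 0.477 in SNU-484. With a replicate block the counts were 7, 0 and 8 in NCI-N87, 4 in SNU-484, 3 for the interaction and 7 between vehicle groups. STAT5A lost its NCI-N87 call (-0.25, edgeR adjusted p = 0.0545) and STAT5B gained one in SNU-484 (-0.25, edgeR adjusted p = 0.0105). A replicate block with replicate 1 as reference, added after seeing the data, called 8 genes between vehicle groups, IL6ST (-0.20) being the added one. SOCS2 in NCI-N87 and STAT5A in SNU-484 rest on 21 to 75 counts a library, which limits their precision.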
